A study of Mus musculus with 2 samples.

Results

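The NF-κB transcription factor subunits Nfkb1, Nfkb2, Rel, Rela and Relb and their inhibitors and partners Nfkbia, Nfkbie, Nfkbiz and Bcl3 were examined in accessible chromatin of mouse spleen, as 9 genes of 21938 protein-coding genes in GENCODE vM21 on mm10. They were chosen by name, with earlier results of these data known. Every accessible chromatin peak in the gene body and 20 kb on each side was taken. These windows held 46 of 25343 peaks in the library whose nuclei were not centrifuged on a density gradient and 108 of 89382 peaks in the library made in a 50 µL reaction. Both libraries came from formalin-fixed, paraffin-embedded (FFPE) spleen of Mus musculus and were made with scFFPE-ATAC, in which open DNA of fixed nuclei is tagged by a barcoded Tn5 transposase and barcoded by split-and-pool ligation. Per the study's methods, spleens came from C57BL/6 J mice aged 8 weeks, and the animal or animals behind each library are not given in the sources used here. In the first library the nuclei were not separated from debris on a gradient. That step is part of the general procedure the methods give for mouse spleen, and it is not stated separately for the 50 µL library. The extract protocol gives the same tagmentation text for both libraries, and the 50 µL volume comes from the sample's title.

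NF-κB is a family of dimeric transcription factors that sit in the cytoplasm of resting cells, bound to IκB proteins. Signals from antigen, cytokine and Toll-like receptors activate the IκB kinase complex, the IκB protein is degraded, and the freed dimer enters the nucleus and binds κB sites. Rel and Rela carry transactivation domains and act mostly in the canonical pathway, Relb pairs with the product of Nfkb2 in the non-canonical pathway, and several genes of the family are themselves known as NF-κB targets. In the spleen these factors are known for B cell survival, germinal centre responses and the formation of the marginal zone.

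The libraries differed in the length of their lists, with 8.81 Mb covered by the peaks without gradient and 38.0 Mb by those of the 50 µL library. The median fold enrichment, which is the pileup at the peak summit over the local background, was 5.24 without gradient and 3.29 in the 50 µL list. The median −log10 q of the peak caller was 10.4 without gradient and 13.1 in the 50 µL list, and both measures depend on a read depth that is unknown here. The libraries also differ in reported quality. Without the gradient, the study reports weaker signal at gene starts, a higher duplicate rate and a smaller share of reads in peaks. It could not clearly separate cell types in that condition. It describes the 50 µL reaction as comparable in quality to its larger reaction volume. Peaks within 1 kb of a transcription start site (TSS) were found at 2 of 5 B cell marker genes without gradient and at 5 of 5 in the 50 µL list. The same counts were 1 and 3 of 5 for T cell genes, 1 and 3 of 4 for myeloid genes, and 1 of 5 in each list for genes of other tissues, which was the muscle gene Ckm both times. Of the T cell genes, Cd3d had a promoter peak in both lists, Cd3e and Cd8a in the 50 µL list alone, and Cd3g and Cd4 in neither. As each list was called over all cells of a library, more cells of a type and more open chromatin per cell cannot be told apart. With 1 library per condition there is no replicate check, so counts and values are described with no test, and the 95% intervals (exact, Clopper-Pearson) account for counting error alone.

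A promoter peak, within 1 kb of any annotated TSS of the gene, was present at 8 of 9 members without gradient and at 9 of 9 in the 50 µL list. The same held for 43.7% and 56.6% of all protein-coding genes. The exact interval was 51.8 to 99.7% without gradient and 66.4 to 100% in the 50 µL list. The gene without a promoter peak was Nfkbia. Members had a median of 5 annotated TSSs and all genes a median of 3, and the part of this in the counts was not tested. Peaks within 1 kb of the 5′ end alone were present at 8 and 9 members, beside 39.6% and 51.9% of all genes. When the 50 µL list was reduced to its 25343 most significant peaks, 9 of 9 members still had a promoter peak, beside 45.2% of all genes. With only peaks of at least 4-fold enrichment, 6 members without gradient and 4 in the 50 µL list had one, beside 39.9% and 38.4% of all genes.

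Intronic peaks overlap the gene body, with a summit outside exons, and lie away from the gene's own TSSs. They were present at 6 members without gradient (exact interval 29.9 to 92.5%), beside 18.3% of all genes. In the 50 µL list it was 7 members (40.0 to 97.2%), beside 40.6%. Every member had at least 1 flanking peak in each list (66.4 to 100%), beside 50% and 69.4% of all genes. In the 50 µL list the intronic and flanking intervals held the share of all genes, so by these shares the members were not told apart. By class, the 46 peaks without gradient were 13 promoter, 8 intronic and 25 flanking peaks, and the 108 peaks of the 50 µL library were 24 promoter, 30 intronic, 2 exonic and 52 flanking peaks. Peaks of 1000 bp or more numbered 7 in the 50 µL list and 0 without gradient. They lay in the windows of 6 of 9 members (29.9 to 92.5%), beside 33.4% of all genes, a share that this interval also held. Of the flanking peaks, 7 without gradient and 15 in the 50 µL list lay within 1 kb of a TSS of another gene. The windows were denser in peaks than those of most genes, with medians of 0.790 peaks per 10 kb without gradient and 1.78 in the 50 µL list, against 0.195 and 0.659 over all protein-coding genes. The range over the members was 0.405 to 1.66 without gradient and 1.38 to 2.11 in the 50 µL list, so each member was above the median of all genes in each list. Per gene, the 50 µL list held a median of 2 times as many peaks as the other list at the members and 2.67 times as many over the 14552 genes with at least 1 peak without gradient, while the whole list was 3.53 times as long.

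**Figure D1:**
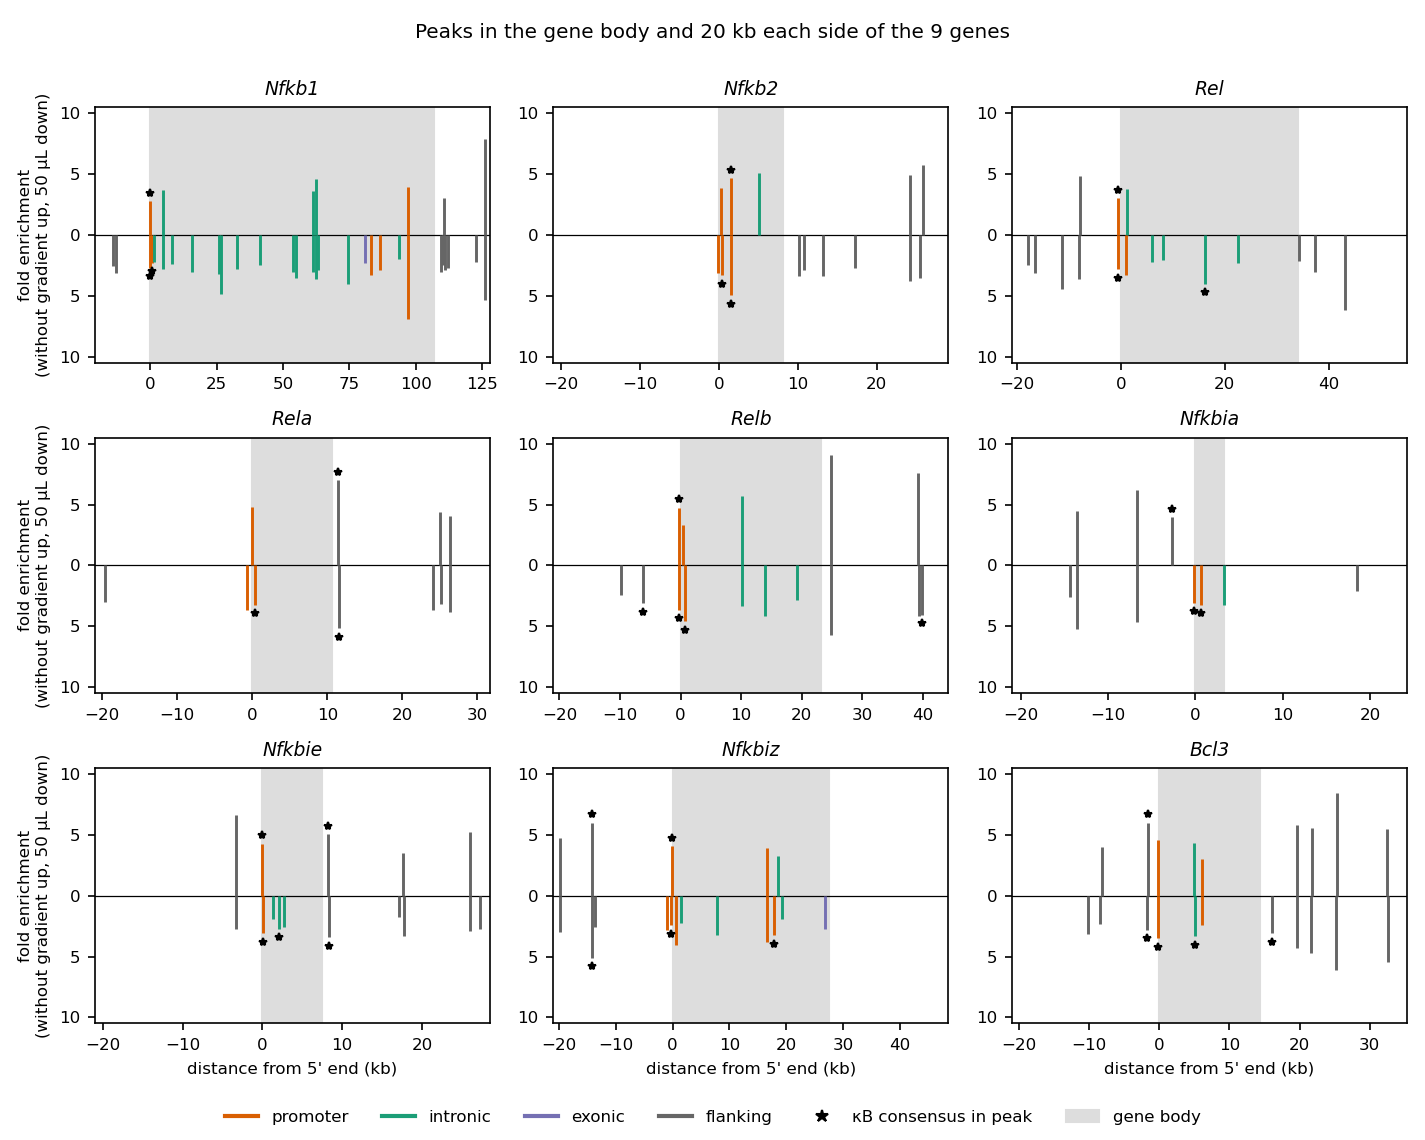
Peaks in the windows of the 9 genes, with distance of the peak summit from the gene's 5′ end in kb on the x axis (positive in the direction of transcription) and fold enrichment on the y axis, upward for the library without gradient and downward for the 50 µL library. Colours give the class, stars mark peaks that hold a κB consensus and grey bands are gene bodies. The highest lines stand mostly outside the promoters, such as 9.11-fold at the Clasrp promoter in the Relb window without gradient.

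The members differed in where their strongest peak lay. Without gradient the most significant peak of the window was a flanking peak at 9 of 9 members. In the 50 µL list it was flanking at 6, at an internal TSS at Nfkb1 and Nfkb2, and at the 5′ end only at Relb. The share of all genes led by a flanking peak is not given here, so the flanking counts have no background. Of members with a 5′ end peak, the most significant peak was at the 5′ end in 0 of 8 without gradient and in 1 of 9 in the 50 µL list. Over all genes with a 5′ end peak this share was 55.5% and 48%. A 5′ end peak that is alone in its window leads it by construction. Members had a median of 5 window peaks without gradient and 10 in the 50 µL list, against 1 and 4 over all protein-coding genes. The part of this in the shares was not tested. The exact interval for the members was 0 to 36.9% without gradient and 0.281 to 48.2% in the 50 µL list. In the 50 µL list it held the share of all genes, so there the members were not told apart by this share. The strongest peaks of both lists overlapped at 4 members, which were Rela, Nfkbia, Nfkbiz and Bcl3. This overlap was not counted over all genes, so it has no background either.

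Promoter peaks of the members were weak within the list made without gradient. Their 13 fold enrichments ran between 2.79 and 4.82 with a median of 3.97, all under the median of 5.38 for the 11166 peaks at TSSs in that list. Ranked by significance, their median place was in the top 74.9% of the list, against the top 40.0% for all peaks at TSSs. In the 50 µL list the median fold enrichment of the 24 promoter peaks was 3.25, against 3.57 for the 23264 peaks at TSSs, but their median place was in the top 21.3%, against the top 30.2%. The flanking peaks of the members were the strongest class without gradient, with a median fold enrichment of 5.53.

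**Figure D2:**
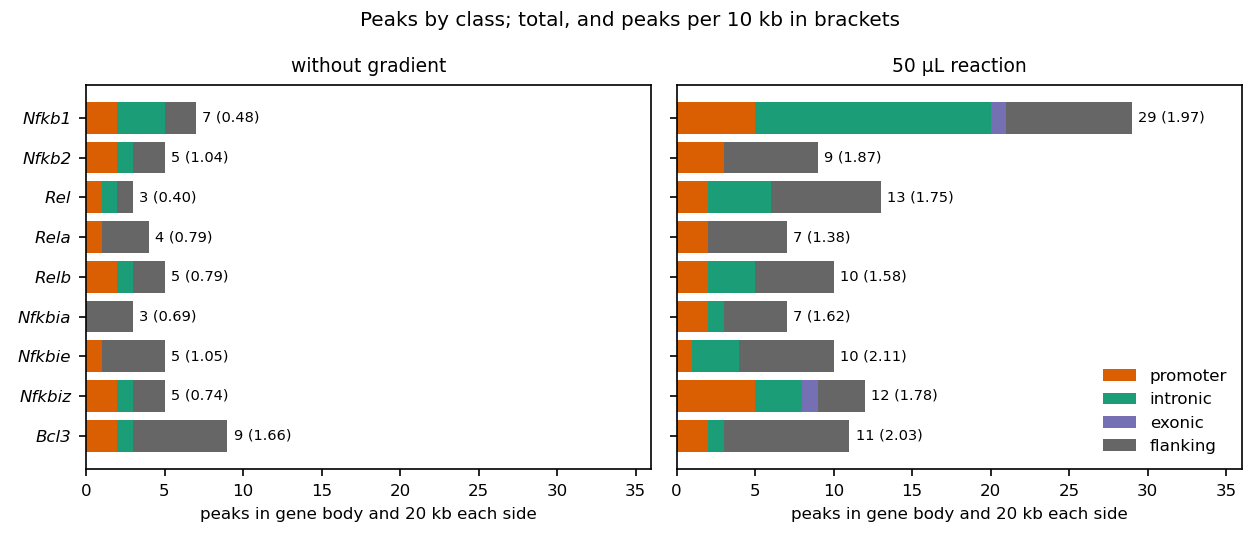
Number of peaks in the window of each gene (x axis) by class, without gradient on the left and in the 50 µL library on the right, with the total and, in brackets, peaks per 10 kb beside each bar. Nfkb1 had 7 and 29 peaks, the most of the 9 genes in the 50 µL list, and Bcl3 had 9 and 11.

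Among the canonical subunits, Rel (ENSMUSG00000020275.9, chr11:23736847-23770970, minus strand) encodes c-Rel, which is abundant in lymphocytes. Its window held 3 peaks without gradient and 13 in the 50 µL list. The promoter peak without gradient, chr11:23771451-23771746, had a fold enrichment of 3.00 and a −log10 q of 4.85. It was the only promoter peak of Rel and was lost with a −log10 q above 5. The 50 µL list had a peak of 1512 bp there, chr11:23770230-23771741, with a fold enrichment of 2.83 and a −log10 q of 26.8. A more significant one, chr11:23769738-23770086, had its summit 1058 bp into the gene, with a fold enrichment of 3.26 and a −log10 q of 38.1. This place was called without gradient too, as an intronic peak at 1092 bp from the 5′ end with a fold enrichment of 3.76. The strongest peak of the window without gradient was upstream, at chr11:23778784-23779056, with a fold enrichment of 4.85 and a −log10 q of 11.9. That of the 50 µL list lay downstream inside Pus10, chr11:23727584-23728012, with a fold enrichment of 6.16 and a −log10 q of 55.7. It was the most significant of the 64 member peaks with no counterpart in the other list. The Rel promoter is shown because its wide peak in the 50 µL library held 3 matches to the κB consensus, the 10 bp recognition sequence of NF-κB dimers, of which the one farther upstream was also inside the peak without gradient. An intronic peak of the 50 µL list, chr11:23754220-23754895, held 2 overlapping κB matches, with a fold enrichment of 4.03 and a −log10 q of 35.2. Here and in the following genes the sequence is written along the gene's strand from the GRCm38.p6 genome of RefSeq, the assembly of mm10, and capitals mark the κB match found on either strand. The stretches are chr11:23771486-23771585, between 615 and 516 bp before the 5′ end, and chr11:23771006-23771106, between 136 and 36 bp before it, where 2 matches overlap.
Rel upstream: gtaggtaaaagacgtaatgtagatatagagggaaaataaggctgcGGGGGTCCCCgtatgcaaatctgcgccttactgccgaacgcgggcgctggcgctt
Rel proximal: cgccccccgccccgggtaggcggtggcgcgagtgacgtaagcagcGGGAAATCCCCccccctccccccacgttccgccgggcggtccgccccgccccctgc

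Rela (ENSMUSG00000024927.8, chr19:5637483-5648130, plus strand) encodes the subunit known as p65 in the most common dimer. Its window held 4 peaks without gradient and 7 in the 50 µL list, with no intronic peak in either. The promoter peak without gradient, chr19:5637217-5637492, had the highest fold enrichment of the 13 promoter peaks of members in that list, 4.82, with a −log10 q of 7.45. The 50 µL list had 2 promoter peaks, of which chr19:5636530-5637038 was more significant, with a fold enrichment of 3.65 and a −log10 q of 24.6. The other, chr19:5637160-5638197, was 1038 bp wide and held a κB match 415 bp past the 5′ end. A region just past the 3′ end was the strongest of the window in both lists. It was called at chr19:5648730-5649154 without gradient, with a fold enrichment of 6.99 and a −log10 q of 18.2. In the 50 µL list it was 1513 bp wide, chr19:5648403-5649915, with a fold enrichment of 5.16 and a −log10 q of 49.3. No annotated TSS lay within 1 kb of it, and a κB match stood 12 bp from the summit without gradient and 42 bp from that of the 50 µL library. This stretch, chr19:5648901-5649000, is shown because the strongest peak of the window held a κB match in both lists, as at Nfkbiz and at no other member.
Rela 3′ flank: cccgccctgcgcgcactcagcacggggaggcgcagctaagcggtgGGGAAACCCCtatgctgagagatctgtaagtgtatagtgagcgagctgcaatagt

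Nfkb1 (ENSMUSG00000028163.17, chr3:135584655-135691547, minus strand) encodes the precursor p105, from which the DNA-binding p50 subunit is made. At 107 kb it is the longest of the 9 genes, and its window held 7 peaks without gradient and 29 in the 50 µL list. Of the 30 intronic peaks of all members in the 50 µL list, 15 were in Nfkb1, and of the 8 without gradient 3 were. At the 5′ end the peak without gradient, chr3:135691491-135691692, had a fold enrichment of 2.79 and a −log10 q of 3.26, the lowest −log10 q of the 13 promoter peaks. The 50 µL peak there, chr3:135691372-135691671, had a fold enrichment of 2.69 and a −log10 q of 16.1. The strongest promoter peak of Nfkb1 was elsewhere in both lists, 97.1 kb into the gene without gradient and 97.0 kb in the 50 µL list, at the TSS of a processed transcript. There the peak without gradient, chr3:135594242-135594653, had a fold enrichment of 3.97 and a −log10 q of 6.19. The 50 µL peak, chr3:135594352-135594751, had a fold enrichment of 6.94 and a −log10 q of 71.0, and was in the top 1.12% of its list. This was the most significant peak of all 9 windows in the 50 µL list. Downstream, inside Manba, a peak had a fold enrichment of 7.87 and a −log10 q of 24.9 without gradient (chr3:135565379-135565774), and 5.38 and 55.7 in the 50 µL list (chr3:135565381-135565768). The strongest intronic peak without gradient, chr3:135628752-135629201, had a fold enrichment of 4.58. That of the 50 µL list, chr3:135664947-135665373, had 4.86 and no counterpart without gradient. The 5′ end peak of both lists held the κB match in chr3:135691497-135691526, which lies 31 bp past the 5′ end, and the second 5′ end peak of the 50 µL list, chr3:135690407-135691100, held another at 528 bp.
Nfkb1 5′ end: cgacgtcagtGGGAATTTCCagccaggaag

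Of the non-canonical subunits, Relb (ENSMUSG00000002983.17, chr7:19606217-19629438, minus strand) encodes RelB, which acts with p52 and is retained by the p100 precursor. Its window held 5 peaks without gradient and 10 in the 50 µL list, with 2 promoter peaks in each. Without gradient the more significant promoter peak was chr7:19629494-19629772, with a fold enrichment of 4.73 and a −log10 q of 9.99. In the 50 µL list it was chr7:19628221-19629280, 1060 bp wide, with a fold enrichment of 4.58 and a −log10 q of 62.8, and this was the one 5′ end peak that led its window. The strongest peak without gradient was at the promoter of the neighbour Clasrp, chr7:19604200-19604783, with a fold enrichment of 9.11 and a −log10 q of 25.4, the highest fold enrichment of the 46 peaks. The 50 µL list had 5.69 and 54.9 there. An intronic peak 10.2 kb into the gene was called without gradient with a fold enrichment of 5.70, and in the 50 µL list with 3.34. The list without gradient held κB matches under 1 peak of the Relb window and the 50 µL list under 4. Of the 4, chr7:19589413-19589648 lay at a Clasrp TSS, with a fold enrichment of 4.06 and a −log10 q of 21.5. Another, chr7:19635459-19635705 at a Clptm1 TSS, had 3.13 and 10.4. The stretch before the 5′ end, chr7:19629439-19629580, is shown because the 50 µL peak chr7:19629453-19630087 held both of its matches, at 15 and 88 bp before the 5′ end, and the peak without gradient held the one at 88 bp.
Relb promoter: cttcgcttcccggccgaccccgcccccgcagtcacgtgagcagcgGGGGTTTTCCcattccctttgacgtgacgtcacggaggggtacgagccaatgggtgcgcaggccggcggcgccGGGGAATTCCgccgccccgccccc

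Nfkb2 (ENSMUSG00000025225.15, chr19:46304320-46312385, plus strand) encodes p100, an inhibitor as it stands and the precursor of p52 once processed. Its window held 5 peaks without gradient and 9 in the 50 µL list. The most significant promoter peak of both lists was about an internal TSS of the gene. It was chr19:46305615-46305868 without gradient, with a fold enrichment of 4.67 and a −log10 q of 9.55, and chr19:46305396-46305980 in the 50 µL list, with 4.96 and 61.5. The lncRNA AC114539.1 also starts within 1 kb of it, so the gene to which this peak belongs cannot be told. Intronic peaks numbered 1 without gradient, chr19:46309216-46309455 with a fold enrichment of 5.10, and 0 in the 50 µL list. This was one of 3 member peaks without gradient that had no counterpart. Another of the 3 was the strongest of the window without gradient, chr19:46330067-46330319 inside Fbxl15 and Cuedc2, with a fold enrichment of 5.77 and a −log10 q of 15.5. The leading flanking peak of the 50 µL list was at the Fbxl15 promoter, chr19:46328026-46329040, 1015 bp wide, with a fold enrichment of 3.76 and a −log10 q of 25.6. Under the internal promoter peak of both lists was the κB match in chr19:46305695-46305724, 1385 bp past the 5′ end. A further 3 matches stood under the 50 µL peak chr19:46304499-46305137 and none under the peak of the list without gradient at the 5′ end.
Nfkb2 internal promoter: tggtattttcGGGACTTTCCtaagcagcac

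The inhibitor Nfkbia (ENSMUSG00000021025.8, chr12:55489410-55492647, minus strand) encodes IκBα, which holds dimers in the cytoplasm and is quickly resynthesised after NF-κB activation. Its window held 3 peaks without gradient, all upstream flanking peaks, and 7 in the 50 µL list. The 50 µL promoter peaks were chr12:55491846-55492264, with a fold enrichment of 3.22 and a −log10 q of 32.9, and chr12:55492568-55493042, with 3.05 and 28.2. Both are in the stronger part of their list, at the top 16.5% and top 21.1%, and neither overlapped a peak without gradient. The strongest peak of the window was upstream in both lists, chr12:55499060-55499447 without gradient, with a fold enrichment of 6.23 and a −log10 q of 16.3, and chr12:55498937-55499534 in the 50 µL list, with 4.63 and 36.5. The only peak counted as intronic in the 50 µL list, chr12:55489238-55489718, overlapped the gene body. Its summit, 3239 bp from the 5′ end, was just past the 3′ end of this gene of 3.24 kb and thus in no intron. A κB match that reads the same on both strands, GGGAATTCCC, stood 28 bp from the summit of the upstream peak chr12:55495184-55495442, with a fold enrichment of 3.95. That peak was present only in the list without gradient. The 2 matches under the 50 µL promoter peak chr12:55492568-55493042 are shown, in chr12:55492866-55492965 and chr12:55492648-55492721, at 264 and 20 bp before the 5′ end.
Nfkbia upstream: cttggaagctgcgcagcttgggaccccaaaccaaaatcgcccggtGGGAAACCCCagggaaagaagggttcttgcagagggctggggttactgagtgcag
Nfkbia proximal: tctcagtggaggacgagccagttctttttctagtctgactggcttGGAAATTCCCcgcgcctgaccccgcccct

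Nfkbie (ENSMUSG00000023947.8, chr17:45555703-45563169, plus strand) encodes IκBε, another cytoplasmic inhibitor, known to restrain c-Rel and RelA dimers in B cells. Its window held 5 peaks without gradient and 10 in the 50 µL list. The single promoter peak was chr17:45555569-45555851 without gradient, with a fold enrichment of 4.28 and a −log10 q of 9.91, and chr17:45555326-45555944 in the 50 µL list, with 3.06 and 30.0. Of its intronic peaks there were 0 without gradient and 3 in the 50 µL list, led by chr17:45557589-45557968 with a fold enrichment of 2.70, a −log10 q of 20.9 and 2 κB matches. An upstream peak led the window without gradient, chr17:45552222-45552498, with a fold enrichment of 6.69 and a −log10 q of 20.8, and was called in the 50 µL list with 2.71 and 15.3. The 50 µL window was led by the promoter of the chaperone gene Hsp90ab1, chr17:45573204-45574964, which at 1761 bp was the widest peak of the 9 windows, with a fold enrichment of 3.29 and a −log10 q of 37.6. At the neighbour Slc35b2 both lists had a promoter peak with a κB match, with a fold enrichment of 5.08 without gradient and 3.40 in the 50 µL list. The match under the Nfkbie promoter peak of both lists, 100 bp before the 5′ end, is in chr17:45555549-45555648.
Nfkbie promoter: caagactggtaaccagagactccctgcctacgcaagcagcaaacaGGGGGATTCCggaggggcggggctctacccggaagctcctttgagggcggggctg

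The nuclear members of the IκB family were Nfkbiz and Bcl3. Nfkbiz (ENSMUSG00000035356.17, chr16:55811375-55838899, minus strand) encodes IκBζ, a cofactor induced by Toll-like receptor and interleukin signals. Its window held 5 peaks without gradient and 12 in the 50 µL list, of which 2 and 5 were promoter peaks. In both lists the most significant promoter peak was at an internal TSS, 16.6 kb into the gene. It was chr16:55822142-55822430 without gradient, with a fold enrichment of 3.96 and a −log10 q of 9.94, and chr16:55821908-55822482 in the 50 µL list, with 3.76 and 44.1. Close to it the 50 µL list had a peak of 1094 bp with a κB match, chr16:55820258-55821351, with a fold enrichment of 3.26 and a −log10 q of 32.4. The strongest peak of the window was upstream inside the neighbour Nxpe3 in both lists, 14.2 kb from the 5′ end without gradient and 14.3 kb in the 50 µL list. It was chr16:55852988-55853256 without gradient, with a fold enrichment of 6 and a −log10 q of 14.9, and chr16:55852970-55853317 in the 50 µL list, with 5.08 and 46.9. It held the κB sequence GGGGTTTCCC within 30 bp of the summit in both lists, which is the reverse complement of the match in the Rela 3′ flank. At the 5′ end, both lists had a peak with a match in chr16:55838850-55838879, 30 bp past the 5′ end, whose 10 bases are those of the Nfkb1 5′ end.
Nfkbiz 5′ end: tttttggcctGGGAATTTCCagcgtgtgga

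Bcl3 (ENSMUSG00000053175.17, chr7:19808462-19822770, minus strand) encodes a nuclear IκB protein that binds p50 and p52 dimers. It had the most peaks of the 9 genes without gradient, 9 peaks or 1.66 per 10 kb, and 11 in the 50 µL list. Only 0.182% of all protein-coding genes had as many per 10 kb without gradient, and 3.79% in the 50 µL list. The promoter peak with the highest −log10 q was chr7:19822885-19823110 without gradient, with a fold enrichment of 4.61 and a −log10 q of 8.78, and chr7:19822728-19823118 in the 50 µL list, with 3.49 and 31.1. Its intronic peak was chr7:19817710-19817995 without gradient, with a fold enrichment of 4.37, and chr7:19817519-19817904 in the 50 µL list, with 3.33 and a κB match. The flank past the 3′ end, which holds the promoter of Cblc, carried the strongest peak of both lists. It was chr7:19797335-19797700 without gradient, with a fold enrichment of 8.46 and a −log10 q of 24.0, and chr7:19796970-19797720 in the 50 µL list, with 6.10 and 62.0. A peak 1623 bp upstream in the list without gradient, chr7:19824221-19824561, had a fold enrichment of 6.01, and the 50 µL peak there, chr7:19824244-19824628, had 2.81. Both peaks hold the match in chr7:19824311-19824410, 1586 bp before the 5′ end, and the 50 µL promoter peak held another 17 bp past the 5′ end. A match also stood under a 50 µL peak past the 3′ end with no counterpart, chr7:19806218-19807019, with a fold enrichment of 3.08.
Bcl3 upstream: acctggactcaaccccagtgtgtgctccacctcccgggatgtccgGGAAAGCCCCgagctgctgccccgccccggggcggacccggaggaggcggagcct

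A peak that had 1 bp or more in common with a peak from the other library was taken as shared. Without gradient 43 of 46 member peaks were shared (exact interval 82.1 to 98.6%), beside 95.3% of the whole list. In the 50 µL list 44 of 108 were shared (31.4 to 50.6%), beside 26.4% of the whole list. The summits of the shared peaks lay a median of 44 bp from their counterpart and at most 720 bp away, and 29 of 43 were under 100 bp away. Bcl3 had 9 of its 11 peaks of the 50 µL list shared, while Nfkb1 had 7 of 29, Rel 3 of 13 and Nfkbia 2 of 7. All 13 promoter peaks without gradient were shared, as were 7 of the 8 intronic and 23 of the 25 flanking peaks. From the 50 µL side this was 16 of 24 promoter peaks, 5 of 30 intronic peaks and 23 of 52 flanking peaks. Shares by class over the whole lists are not given here, so these counts by class have no background.

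Sharing followed the significance of the peaks in the longer list. Shared member peaks of the 50 µL list had a median −log10 q of 29.9, and those not shared 13.0. By rank, 10 of the 12 member peaks in the top 10% of the list were shared, where 85.3% of all peaks were. Among peaks between the top 10 and 25% it was 18 of 29, where 58.3% of all were, and between 25 and 50% it was 14 of 33, where 25.5% were. In the lower 50% of the list it was 2 of 34, where 5.51% of all were.

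**Figure D3:**
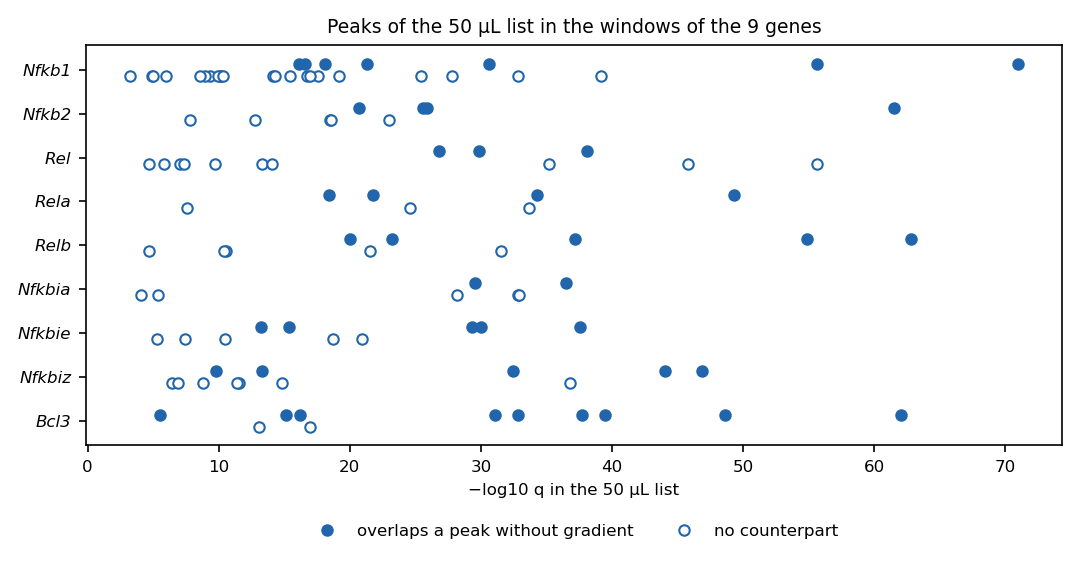
Significance (−log10 q, x axis) of each of the 108 peaks of the 50 µL library by gene, filled where the peak overlapped a peak without gradient and open where it did not. Open points lie mostly to the left, with medians of 13.0 for open and 29.9 for filled points, but the ranges overlap and the highest open point, in the Rel window, is at 55.7.

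A κB consensus was found under peaks of all 9 genes, in a search on both strands. Over both lists the member peaks held 35 matches of 19 different sequences, counting a sequence and its reverse complement once, and some matches overlap each other. Of the 35, 10 were in peaks of both lists. GGGAAACCCC or its reverse complement occurred at 5 members, Rela, Relb, Nfkbia, Nfkbie and Nfkbiz. GGGAATTTCC or its reverse complement occurred at 3, Nfkb1, Nfkbia and Nfkbiz, and in each case within 31 bp of the 5′ end. A match is a description of the letters under a peak, not a sign that a factor was bound.

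Within 100 bp of the summit, the consensus stood under 4 of 20 member peaks at TSSs without gradient (exact interval 5.73 to 43.7%), beside 3.68% of all peaks at TSSs in that list. In the 50 µL list it stood under 9 of 40 (10.8 to 38.5%), beside 3.03%. These peaks are at TSSs of the members or of their neighbours. Away from TSSs it was 4 of 26 without gradient (4.36 to 34.9%), beside 2.95%, and 3 of 68 in the 50 µL list (0.919 to 12.4%), beside 1.96%. At the 50 µL peaks away from TSSs the members' interval held the value for all peaks, so by this share they were not told apart. The intervals take peaks as independent, though several lie in the same window. Over whole peaks, 18 of the 40 member peaks at TSSs of the 50 µL list held a match (29.3 to 61.5%), beside 9.12% of all. By gene, 9 of 9 members had a promoter peak with a match in the 50 µL list, beside 16.7% of the 12407 genes with a promoter peak. As members' peaks at TSSs were wider in the 50 µL list (median 542 bp, against 478 bp for all), matches were also counted per kb of sequence. There were 1.07 per kb in member peaks at TSSs without gradient and 1.04 in the 50 µL list, against 0.188 and 0.182 over all peaks at TSSs. Away from TSSs the values were 0.564 and 0.304 per kb, against 0.180 and 0.124.

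**Figure D4:**
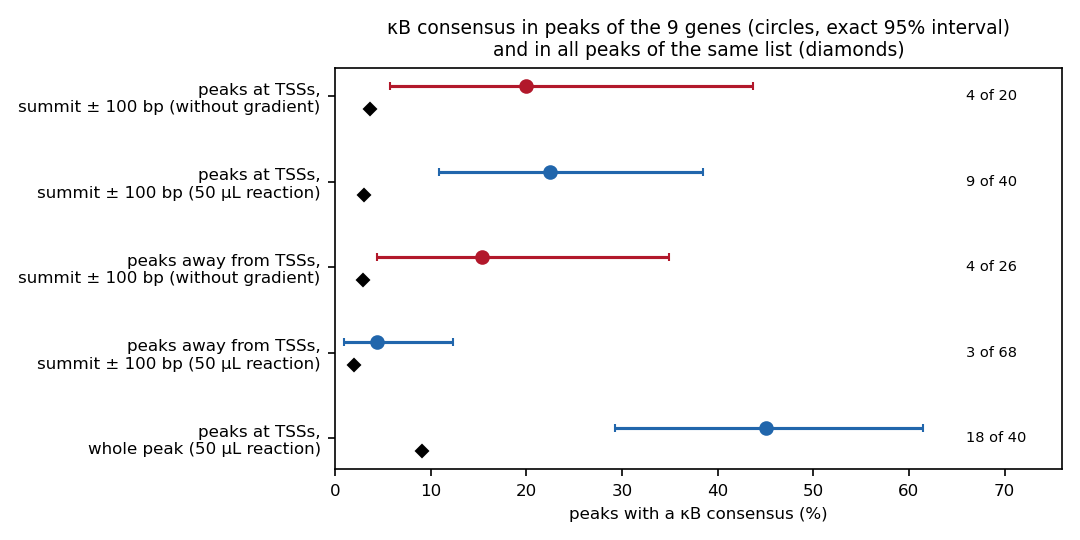
Percent of peaks with a κB consensus (x axis) for peaks in the windows of the 9 genes (circles with exact 95% intervals, the counts at the right) and for all peaks of the same list and class (diamonds). At TSSs the circles stand at 20.0 and 22.5% near the summit, against 3.68 and 3.03% for all peaks.

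A difference in the same direction was seen in promoter windows set without the peaks. These windows hold κB sites already counted above under the 50 µL peaks. Several of these genes are also known NF-κB targets, so this is no independent evidence. Of 32851 promoter windows of 300 bp in the RefSeq promoter set on GRCm38.p6 (250 bp before to 50 bp after the start), 8 windows of 6 members were matched by symbol, 3 of them of Nfkb2 and in part overlapping. By gene, 5 of 6 members had a window with a κB consensus (35.9 to 99.6%), beside 5.14% of all gene symbols in the set. The member without one was Rela. Nfkb1, Relb and Nfkbiz were not matched. The member windows had a median GC content of 66.8% and an observed over expected CpG ratio of 0.734, against 52.7% and 0.384 for all windows. Member peaks had a median GC content around the summit of 56.5% without gradient and 49.0% in the 50 µL list, against 51.7% and 46.8% for all peaks. The part of base composition in the κB counts was not tested.

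Other sequences were nearer to the background of the lists, in percentage points, though AP-1 and the GC box were above it in both lists. The AP-1 sequence TGANTCA, searched like all of these on both strands within 100 bp of the summit, stood under 5 of 46 member peaks without gradient and 11 of 108 in the 50 µL list. This was 10.9% and 10.2%, against 5.05% and 5.42% of all peaks. The GC box GGGGCGGGG stood under 6 and 9 member peaks, or 13.0% and 8.33%, against 5.42% and 3.15%. The RUNX sequence TGTGGTT was under 1 and 5 member peaks. The PU.1 sequence GAGGAAGT was under 1 in each list, the octamer ATGCAAAT under 0 and 1, and the CTCF consensus under 3 in each. For these 4 the shares in members were at most 6.52% without gradient and 4.63% in the 50 µL list, against at most 7.94% and 6.25% of all peaks.

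Further along the pathway, promoter peaks were present at 40 of 59 listed genes without gradient (exact interval 54.4 to 79.4%) and at 55 in the 50 µL list (83.5 to 98.1%), read beside 43.7% and 56.6% of all genes. Of the 4 lists these genes come from, the brakes and the targets both hold Nfkbid, counted here once. The IκB kinases and their partners had one at 10 of 11 genes without gradient and 11 of 11 in the 50 µL list. The most significant in the 50 µL list were Ikbkg, the regulatory subunit NEMO, with a −log10 q of 83.5, Map3k7, the kinase TAK1, with 58.8, the catalytic kinase Ikbkb with 46.6 and the TAK1 partner Tab1 with 44.3. Adaptors and ubiquitin ligases had one at 14 of 18 genes without gradient and 18 of 18 in the 50 µL list, led by the Toll-like receptor adaptor Myd88 with a −log10 q of 75.7, the kinase Irak4 with 64.7, the paracaspase Malt1 with 58.3 and the ligase subunit Rbck1 with 56.4. Malt1 was among the 4 adaptors with no promoter peak without gradient. Other inhibitors and brakes had one at 9 of 9 genes in each list, led in the 50 µL list by Commd1 with a −log10 q of 69.2, the IκBβ gene Nfkbib with 66.5, the deubiquitinase Otulin with 53.7 and N4bp1 with 51.1.

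Genes known as NF-κB targets in immune cells had the widest gap between the libraries of these 4 lists. A promoter peak was present at 8 of 22 without gradient (17.2 to 59.3%) and at 18 of 22 in the 50 µL list (59.7 to 94.8%). The first share was close to the 43.7% of all genes. The 4 most significant in the 50 µL list were the survival gene Bcl2l1 with a −log10 q of 75.0, the adhesion molecule Icam1 with 52.8, the transcription factor Irf1 with 39.3 and the activation marker Cd69 with 36.8, and all 4 had one without gradient as well. Il1b, Ccl3, Bcl2a1a and Tnfsf13b had a promoter peak in neither list. Bcl2a1a belongs to a family of near-identical copies, where reads can fail to map to 1 place. A promoter peak with a κB consensus in the 50 µL list was present at 11 of the 18 targets with a promoter peak, 5 of 9 brakes, 7 of 18 adaptors and 3 of 11 kinases, read beside the 16.7% of all genes with a promoter peak. The targets were listed as known NF-κB targets, so a κB sequence at their promoters is no independent evidence.

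**Figure D5:**
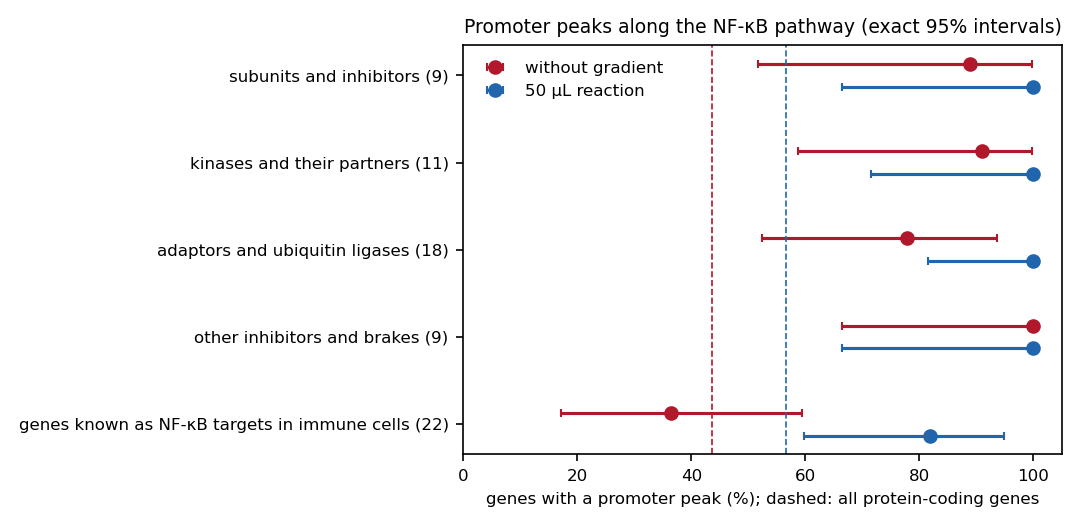
Percent of genes with a promoter peak (x axis) for the 9 subunits and inhibitors and 4 further lists of the pathway, with exact 95% intervals, without gradient above and in the 50 µL library below in each pair. Dashed lines are all protein-coding genes (43.7 and 56.6%), and the known targets without gradient, at 36.4%, are the one point left of its line.

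The gene with the most peaks of the 9 in the 50 µL list, Nfkb1, was compared with all protein-coding genes by its 6 counts of promoter, gene body and flanking peaks in both lists. The nearest by Euclidean distance over log2(count + 1) were the cyclin gene Ccnd3 at 0.48, Cyth1 at 0.61 and Osbpl8 at 0.62. Ccnd3 had 8 peaks without gradient and 25 in the 50 µL list, close to the 7 and 29 of Nfkb1. The 3 genes are 94.6, 117 and 132 kb long, so they share with Nfkb1 a long gene body.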

How the data were processed

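Peak lists of 2 scFFPE-ATAC libraries of mouse FFPE spleen were analysed, 1 per condition, and replicate numbers of the samples pair nothing. Per the study's methods, alignment was by BWA mem (v0.7.17) and sorting by samtools (v1.17), an in-house script took out duplicates, MACS2 (v2.1.2; no model, shift 0, q-value 0.01) called peaks in each library, and bedtools (v2.30.0) took out blacklisted regions. The submitters' notes name BWA, SAMtools, hg38 and mm10. With this shift, summits can lie some bases from the Tn5 cuts. The deposited fold enrichment is a ratio, pileup over local background at the summit, and the deposited −log10 q is MACS2's value for that summit. The display score deposited with each peak was not used, nor were −log10 p values. The lists count neither reads nor cells, and so the depth is unknown.

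Peaks were assigned to GENCODE vM21 genes by overlap of at least 1 bp, in the order promoter (1 kb each side of any annotated TSS), exonic (summit in an exon), intronic and flanking (20 kb each side). Chromosome names and lengths were those of GRCm38.p6. The backgrounds were all protein-coding genes on the reference chromosomes and all peaks of the same list there, which are 25343 without gradient and 89213 of 89382 in the 50 µL library. The κB consensus of 10 bp was searched on both strands. All 9 members are named, each with its most significant promoter peak and other peak in each list, and with peaks wider than 1000 bp or with a κB match. From the other lists, the 4 genes whose promoter peak ranked highest in the 50 µL library and those with none in either list are named. Other names of list genes and markers (the T cell genes, Ckm), and the sequences other than κB, were chosen after values were seen. Members and lists were chosen with earlier results of these data known. As alternatives, peaks were kept only at −log10 q above 5 or at 4-fold enrichment or more, and other runs used lists of equal length, assignment by summit, a promoter of 500 bp, the 5′ end as the sole TSS, a flank of 10 kb, a reciprocal overlap of 50%, and motif windows of 50 bp or the whole peak. Assignment and motif search were tested on simulated data. The tools were Python 3.11.15, pandas 2.3.3, numpy 2.4.6, pysam 0.24.0, scipy 1.17.1 and matplotlib 3.10.9.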

Additional observations from a re-analysis of the deposited data

How the results depend on the processing

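Of 54 recomputed values, 39 stayed within 1.5 times the reported one and 15 moved further, as follows. With only peaks of at least 4-fold enrichment, promoter peaks of the 9 genes numbered 6 without gradient and 4 in the 50 µL list, intronic peaks 4 in each, and flanking peaks 14 in the 50 µL list, where 4 members then had a promoter peak. With the 50 µL list reduced to the length of the other, it held 8 intronic and 20 flanking peaks, and 29 shared ones. A flank of 10 kb left 12 flanking peaks without gradient and 25 in the 50 µL list. A reciprocal overlap of 50% left 24 shared peaks in each. A motif window of 50 bp left 4 peaks with a κB consensus without gradient, and the whole peak gave 24 in the 50 µL list. Fewer peaks, or less or more sequence, enter by the construction of most of these alternatives. The reciprocal overlap keeps the same peaks and makes the rule of sharing stricter. No paired analysis was possible because each condition has 1 library, and leaving out a replicate was not possible for the same reason. Depth is unknown, so a peak called in 1 list alone is not shown to be absent from the other library.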
